A study of Mus musculus with 44 samples.

Results

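DNA methylation of the mouse hippocampus was compared between 24 h and 6 h after an injection of LPS (lipopolysaccharide, a cell wall component of Gram-negative bacteria). The comparison uses 8 of the 44 libraries of the series, 4 taken at LPS 24 h and 4 at LPS 6 h, and no saline library enters its tests. Its measurements are the 1123913 cytosines, matched by chromosome, position and strand, that are listed for both times. They make up 96.5% of the cytosines listed for LPS 24 h and 81.4% of those listed for LPS 6 h. The assay was RRBS (reduced representation bisulfite sequencing), in which fragments rich in CpG are selected and converted with bisulfite to give, for each cytosine, the percent of reads in which it was methylated. The Ovation RRBS Methyl-Seq kit was used on 100 ng of DNA per library.

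Both groups, and every other group used below, were wild-type adult male C57BL/6J mice of 8 to 12 weeks and about 30 g, in a model of Gulf War Illness. All of them drank corticosterone (CORT, the main rodent glucocorticoid) at 200 mg/L in 0.6% ethanol for 7 days. On day 8 all received 4 mg/kg of DFP (diisopropyl fluorophosphate, which blocks acetylcholinesterase for good), and CORT was repeated for 7 days every other week up to 5 weeks. The LPS 24 h and LPS 6 h groups were then given 0.5 mg/kg LPS under the skin. The groups set beside them for description were 3 hippocampus libraries at LPS 12 h and 3 from saline mice at 6 h. Frontal cortex gave 4 libraries at LPS 24 h and 4 at LPS 6 h, treated in the same way. The stress hormone and the toxicant are therefore shared by all groups, and the labelled difference between the groups compared is the time since LPS. The labels do not give the hour or day of collection or a batch, and effects of these cannot be told apart from that of time. The labels do not say whether the 4 libraries of a group came from separate mice, so the p-values below measure the spread between these libraries.

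In mammals a methyl group on the cytosine of a CpG is copied to the new strand after replication by Dnmt1, laid down afresh by Dnmt3a and Dnmt3b, and oxidised by the Tet enzymes as a first step of removal. CpG-dense promoters are mostly unmethylated, gene bodies and the DNA between genes are mostly methylated, and the control regions of imprinted genes are methylated on the copy from one parent. Neurons of the adult hippocampus are mostly postmitotic. After peripheral LPS, microglia and astrocytes turn on cytokine and acute phase genes within hours. Bisulfite reads 5-methylcytosine and 5-hydroxymethylcytosine alike, and in bulk tissue a change in the mix of cells and a change of methylation within cells cannot be told apart.

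The kinds of promoter measured are shown by 5 sequences, each the 250 bases before the RefSeq start of a gene (RefSeq, GRCm38.p6, written on the strand of the gene). Capitals mark each CpG with a cytosine in the shared set. The first 3 belong to imprinted genes with intermediate methylation and the last 2 to genes of the stress response that were almost unmethylated, and all were chosen after their values were seen.
Zrsr1: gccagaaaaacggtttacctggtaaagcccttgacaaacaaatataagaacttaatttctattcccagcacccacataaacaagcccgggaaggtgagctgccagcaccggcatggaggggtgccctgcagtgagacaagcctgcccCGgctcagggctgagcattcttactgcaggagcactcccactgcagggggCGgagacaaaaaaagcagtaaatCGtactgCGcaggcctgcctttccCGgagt
Plagl1: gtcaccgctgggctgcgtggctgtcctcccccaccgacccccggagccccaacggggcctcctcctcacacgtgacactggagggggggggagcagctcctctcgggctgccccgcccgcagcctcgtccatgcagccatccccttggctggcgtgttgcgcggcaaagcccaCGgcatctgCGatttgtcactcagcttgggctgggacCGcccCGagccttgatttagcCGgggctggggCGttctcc
Mcts2: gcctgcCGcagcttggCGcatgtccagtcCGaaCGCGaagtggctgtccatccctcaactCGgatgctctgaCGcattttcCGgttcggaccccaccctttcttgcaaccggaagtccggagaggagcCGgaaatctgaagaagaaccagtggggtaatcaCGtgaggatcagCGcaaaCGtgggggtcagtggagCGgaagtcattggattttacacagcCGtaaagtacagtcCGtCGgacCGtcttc
Fkbp5: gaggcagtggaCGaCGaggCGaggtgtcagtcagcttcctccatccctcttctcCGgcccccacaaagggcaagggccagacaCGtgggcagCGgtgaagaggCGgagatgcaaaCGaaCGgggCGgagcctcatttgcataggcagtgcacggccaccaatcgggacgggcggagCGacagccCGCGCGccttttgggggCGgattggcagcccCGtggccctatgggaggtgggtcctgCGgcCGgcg
Crhr1: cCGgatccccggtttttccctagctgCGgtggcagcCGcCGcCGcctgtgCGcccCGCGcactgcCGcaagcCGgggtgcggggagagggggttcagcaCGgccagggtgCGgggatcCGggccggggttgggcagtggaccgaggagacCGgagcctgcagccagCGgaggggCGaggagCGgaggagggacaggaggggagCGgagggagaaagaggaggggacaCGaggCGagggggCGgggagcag

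Zrsr1 lies at chr11:22971755-22972004 (+ strand), Plagl1 at chr10:13090582-13090831 (+), Mcts2 at chr2:152686898-152687147 (+), Fkbp5 at chr17:28486150-28486399 (- strand) and Crhr1 at chr11:104132531-104132780 (+). Zrsr1 encodes a splicing factor and Plagl1 a zinc finger transcription factor. Mcts2 is an imprinted retrogene, Fkbp5 encodes a co-chaperone that restrains the glucocorticoid receptor, and Crhr1 encodes a receptor for corticotropin-releasing hormone. In the Zrsr1 window, 7 cytosines averaged 38.2% ± 5.28 at LPS 24 h and 29.3% ± 9.45 at LPS 6 h (SD, n = 4 each). The libraries stood at 44.5, 35.2, 40.4 and 32.7% at LPS 24 h, against 36.6, 29.5, 35.1 and 15.8% at LPS 6 h, and the groups overlapped. In the Plagl1 window, 8 cytosines averaged 33.1% ± 8.46 at LPS 24 h and 32.4% ± 8.98 at LPS 6 h. The Mcts2 window, with 20 cytosines, averaged 26.5% ± 6.05 at LPS 24 h and 25.1% ± 5.82 at LPS 6 h. The Fkbp5 window, with 19 cytosines, stood at 0.570% ± 0.364 at LPS 24 h and 0.508% ± 0.364 at LPS 6 h. The Crhr1 window, with 21 cytosines, stood at 0.447% ± 0.389 at LPS 24 h and 0.709% ± 0.503 at LPS 6 h. In each of these windows the libraries of the groups overlapped.

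Averaged over all shared cytosines, methylation differed between the times by less than 1 point. The libraries stood at 26.1, 25.6, 25.4 and 24.5% at LPS 24 h, against 25.1, 24.7, 25.02 and 24.3% at LPS 6 h. Of the libraries at LPS 24 h, 3 lay above all those at LPS 6 h, and replicate 4 lay among them. The groups averaged 25.4% ± 0.675 at LPS 24 h and 24.8% ± 0.342 at LPS 6 h (SD, n = 4 each). The difference of 0.627 points did not pass the exact two-sided permutation test (p = 0.143), whose smallest p for 4 against 4 libraries is 0.0286. Library medians, used instead of means, differed by -0.0102 points (exact p = 1), so the sign depends on that choice. In each group these medians ran from 0 to 1.61%, at the floor, so their sign says little about the direction of the means. Leaving out one library at a time moved the difference of means both ways. It was 0.405 points without replicate 1 of LPS 24 h (exact p = 0.286), 0.474 points without replicate 4 of LPS 6 h (exact p = 0.286) and 0.936 points without replicate 4 of LPS 24 h (exact p = 0.0571, the smallest possible there). Replicate 4 was the lowest library of each group. Without it in both groups, an alternative chosen after seeing the data, the difference was 0.783 points (exact p = 0.1, the smallest that test allows).

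Over the 1108227 cytosines also listed at LPS 12 h, the mean was 25.7% ± 0.133 in saline at 6 h (n = 3), 24.5% ± 0.342 at LPS 6 h (n = 4), 25.4% ± 1.47 at LPS 12 h (n = 3) and 25.1% ± 0.662 at LPS 24 h (n = 4). The lowest library of all was 1 at LPS 12 h, at 23.7%, and the other 2 at that time stood at 25.98 and 26.5%. Shares of cytosines at an intermediate level of 20 to 80% were 13.5% ± 0.307 at LPS 24 h and 13.4% ± 0.330 at LPS 6 h. Cytosines at exactly 0 made up 44.5 to 54.3% of a library at LPS 24 h and 46.7 to 50.3% at LPS 6 h. No read counts stand beside the values, so the depth behind a level is unknown and every interval given here covers the spread between libraries only.

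**Figure D1:**
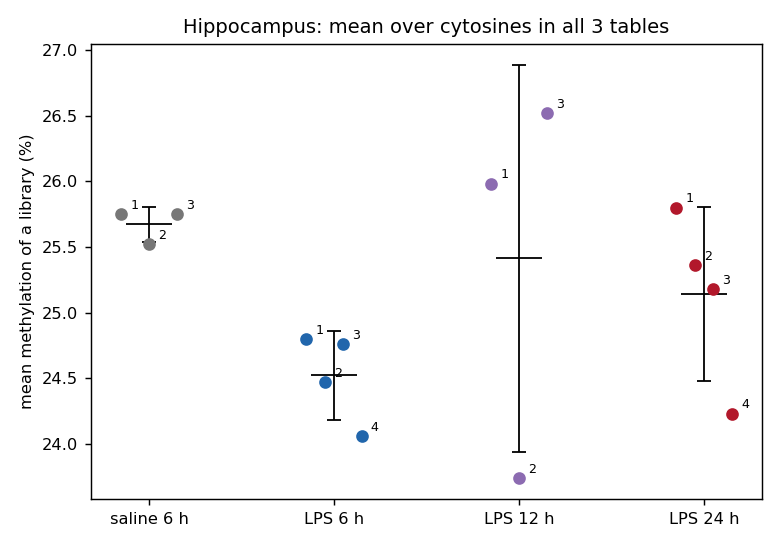
Mean methylation (%) of each hippocampus library over the cytosines listed at all times, with the mean and SD of its group and the replicate number beside each point. The vertical axis does not start at 0. Libraries at LPS 24 h range from 24.2 to 25.8% and those at LPS 6 h from 24.1 to 24.8%, so the groups overlap.

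The tissue label was checked in all 8 libraries. Over 1 kb tiles, each was closest to the saline hippocampus mean (mean absolute difference of 2.31 to 4.56 points), farther from saline frontal cortex (3.79 to 5.81 points) and farthest from saline whole blood (8.17 to 9.58 points). No pair of libraries had equal values at more than 46.9% of cytosines, levels of 0 and 100% included.

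Local methylation was compared in fixed 1 kb tiles with at least 3 shared cytosines and a mean of 5 to 95%. A tile counted as called where it differed by 5 points or more and its limma adjusted p was under 0.05. Of 52922 tiles, 0 were called in either direction (0%), and the smallest adjusted p was 0.873. At an unadjusted p under 0.05 there were 2441 tiles higher at LPS 24 h and 556 lower, 5.66% of those tested. Of 357825 single cytosines, 0 were called (0%) with a minimum of 10 points and the same adjusted p, with 16751 under an unadjusted p of 0.05. Of 10606 genes, each the mean over its span and 1000 bp on either side, limma called 0 (0%). There were 668 genes higher and 39 lower at LPS 24 h at an unadjusted p under 0.05. Of 1097 promoters (1000 bp before to 500 bp after the start) 0 were called by limma (0%), with 63 higher and 2 lower at an unadjusted p under 0.05.

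The differences leaned to one side without passing the test. The median tile differed by 1.05 points (LPS 24 h minus LPS 6 h), and 66.5% of tiles were above 0. From the 1st to the 99th percentile, tile differences ran from -6.25 to 11.2 points. A difference of at least 5 points in either direction was seen at 7753 tiles (14.7%), of which 6660 were higher and 1093 lower at LPS 24 h. The 4 libraries of each time did not overlap at 1381 tiles higher and 320 tiles lower at LPS 24 h, together 3.21% of those tested, and 0% of tiles were called.

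The lean varied with the level of a tile. Tiles with a mean of 20 to 50% had a median difference of 2.61 points, those of 50 to 80% one of 2.12 points, those of 5 to 20% one of 0.942 and those of 80 to 95% one of 0.404. The spread between replicate libraries, as the moderated SD of the limma fit, was also wider at intermediate levels. Its median was 5.44 points at 20 to 50% and 5.62 points at 50 to 80%. It was 2.81 points at 5 to 20% and 2.82 points at 80 to 95%. Tiles in promoters averaged 37.5% at LPS 24 h and 36.1% at LPS 6 h. Tiles elsewhere in gene spans averaged 61.7% at LPS 24 h and 60.2% at LPS 6 h, and tiles outside protein-coding genes 68.2% at LPS 24 h and 66.9% at LPS 6 h. The median difference was 0.986, 1.16 and 0.952 points in these 3 places, and 0.418 points on the X chromosome against 1.06 points on the autosomes. With library means over the tested tiles set equal (centring), which takes 1.39 points from each difference, the median tile became -0.338 points and 45.0% of tiles were above 0. Tiles below 5% (23872) and above 95% (6601) were not tested, and differed by at most 8.43 and 6.63 points.

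The spread between libraries gives the precision of single tiles, before any adjustment for the number of tiles. The unadjusted 95% interval of a tile's difference had a median half-width of 5.75 points. It lay within 10 points of 0 on both sides at 65.6% of tiles and within 20 points at 97.6%. For tiles of 20 or more cytosines the median half-width was 3.61 points, and 89.4% of their intervals lay within 10 points of 0. For genes it was 1.74 points, and 79.8% of intervals lay within 5 points of 0.

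The cytosines of one CpG, read on opposite strands, gave a description of how far a difference on one strand was repeated on the other. At 37841 CpGs with both strands at 5 to 95%, levels correlated at r = 0.981 across CpGs and the LPS 24 h minus LPS 6 h differences at r = 0.118. The strands come from the same 8 libraries, and the depth at each is unknown.

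The same libraries set against frontal cortex give a contrast in which tiles were called. At LPS 24 h, 31.7% of tiles had an unadjusted limma p under 0.05 there, against 5.41% for time in hippocampus. The adjustment depends on that share, so the contrast does not show what size of time difference could be called. In a fit of both tissues over 50000 tiles, 10449 tiles (20.9%) differed between hippocampus and cortex at LPS 24 h, 1113 higher (2.23%) and 9336 lower (18.7%) in hippocampus. At LPS 6 h, 12046 tiles (24.1%) differed, 1151 higher (2.3%) and 10895 lower (21.8%) in hippocampus. From the 1st to the 99th percentile, hippocampus minus cortex ran from -33.0 to 14.7 points at LPS 24 h, while the time difference within hippocampus ran from -6.07 to 10.98 points over the same tiles. The time difference in cortex had a median of 0.497 points, against 1.04 points in hippocampus, and limma called 0 tiles in each (0%). The interaction, the hippocampus change minus the cortex change, was called at 0 of 50000 tiles (0%), with 1653 at an unadjusted p under 0.05 and a smallest adjusted p of 1. No time difference could thus be called particular to hippocampus.

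**Figure D2:**
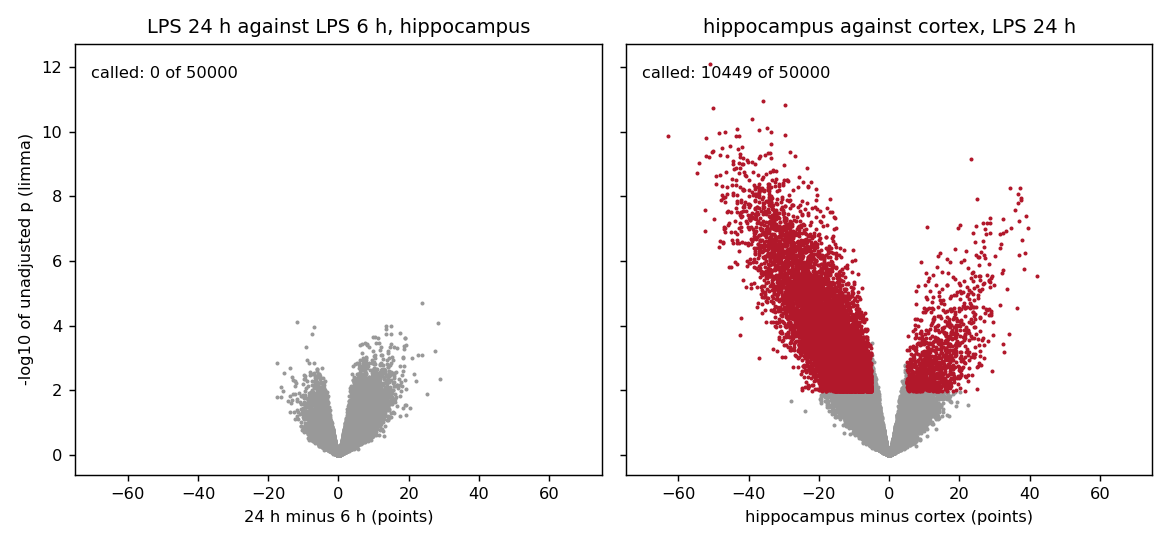
Difference in methylation (points, horizontal) against -log10 of the unadjusted limma p (vertical) for 50000 tiles in a fit of hippocampus and cortex, with called tiles in red. The left panel, LPS 24 h minus LPS 6 h in hippocampus, has 0 called tiles, and the right panel, hippocampus minus cortex at LPS 24 h, has 10449.

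The other hippocampus groups gave no called tile either. In a joint fit of 52134 tiles, limma called 0 (0%) for LPS 24 h against saline, with 379 higher and 3306 lower at an unadjusted p under 0.05. For LPS 6 h against saline it called 0 (0%), with 296 higher and 7043 lower. The contrasts of LPS 24 h with LPS 12 h and of LPS 12 h with LPS 6 h also gave 0 (0%), with 1640 and 3106 tiles at an unadjusted p under 0.05. The saline mice were sampled at 6 h, so LPS 24 h differs from them in time as well as in injection, and comparisons with saline share those 3 libraries.

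Since no tile was called, 10 are described as values, 4 higher and 6 lower at LPS 24 h. They were chosen after the values were seen, from the 6 largest differences in each direction among tiles near protein-coding genes with at least 5 cytosines whose groups do not overlap, each gene once. That they do not overlap is the rule, and each had a limma adjusted p of 0.873. All lie inside the span of their gene and outside its promoter. The annotation used gives no exons, so exon and intron cannot be told apart (coordinates are GRCm38).

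The largest difference was in Camk2b, which encodes the beta subunit of the kinase CaMKII, at chr11:6007000-6007999. Its 11 cytosines averaged 65.3, 68.8, 75.6 and 54.7% in the libraries at LPS 24 h, against 47.0, 46.1, 32.3 and 23.5% at LPS 6 h. The difference was 28.9 points (95% interval 15.8 to 42.0). At the same tile the saline libraries stood at 35.2, 27.8 and 58.6% and those at LPS 12 h at 45.3, 36.4 and 74.2%, so the other groups ranged across both. Here and below, LPS 12 h values of a tile, gene or promoter use only its cytosines also listed at LPS 12 h. Cortex values use only those also listed in cortex, so the cytosines averaged can differ from those of the other groups. In cortex the tile averaged 52.8% at LPS 24 h and 42.1% at LPS 6 h.

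Dnajc16, a member of the DnaJ co-chaperone family, differed by 18.9 points at chr4:141769000-141769999. Its tile stood at 32.4, 42.8, 50.03 and 41.5% at LPS 24 h, against 23.8, 22.9, 25 and 19.5% at LPS 6 h. Saline libraries averaged 38.7% ± 5.48, closer to LPS 24 h, and cortex 70.5% at LPS 24 h and 76.9% at LPS 6 h.

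Neurod6 encodes a transcription factor of excitatory neurons. Its tile at chr6:55679000-55679999 stood at 52.9, 44.9, 53.1 and 36.4% at LPS 24 h, against 35.7, 33.6, 21.0 and 30.9% at LPS 6 h, and saline libraries averaged 48.0% ± 9.78. Plac8, a small cysteine-rich protein, had 62.0, 64.7, 65.0 and 62.5% at LPS 24 h, against 54.4, 44.2, 49.4 and 40.9% at LPS 6 h (chr5:100569000-100569999). At Plac8 the saline mean was 59.8% ± 7.09, between those of the LPS groups.

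Among tiles lower at LPS 24 h, Map4k3, a kinase gene, had the largest difference, -12.1 points (95% interval -21.8 to -2.32), at chr17:80685000-80685999. Its libraries stood at 59.2, 43.8, 59.2 and 49.1% at LPS 24 h, against 66.4, 62.8, 69.8 and 60.4% at LPS 6 h, and saline averaged 65.8% ± 2.11. Otulinl, related to the deubiquitinase OTULIN, had 67.4, 68.2, 67.5 and 56.9% at LPS 24 h, against 72.0, 77.5, 73.2 and 80.4% at LPS 6 h (chr15:27666000-27666999). Replicate 4 was the low library of LPS 24 h there. Espn, an actin-bundling protein, had 71.5, 71.5, 67.3 and 63.6% at LPS 24 h, against 82.9, 74.1, 74.6 and 77.4% at LPS 6 h (chr4:152128000-152128999).

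Mbp, which encodes myelin basic protein, had its tile at chr18:82476000-82476999. It stood at 15.4, 16.2, 12.95 and 12.5% at LPS 24 h, against 23.6, 21.6, 21.5 and 23.5% at LPS 6 h, with saline at 16.7% ± 3.25. The whole Mbp gene averaged 29.2% ± 1.39 at LPS 24 h and 28.7% ± 1.65 at LPS 6 h. Cbx2, a Polycomb protein that binds methylated histone tails, had 64.2, 58.7, 58.8 and 59.2% at LPS 24 h, against 69.1, 73.5, 64.9 and 65.6% at LPS 6 h (chr11:119028000-119028999). Usp13, a deubiquitinase, had 88.9, 82.7, 87.2 and 84.8% at LPS 24 h, against 94.3, 90.0, 94.4 and 94.6% at LPS 6 h (chr3:32844000-32844999). At these 10 tiles the interaction with cortex had a smallest adjusted p of 1.

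**Figure D3:**
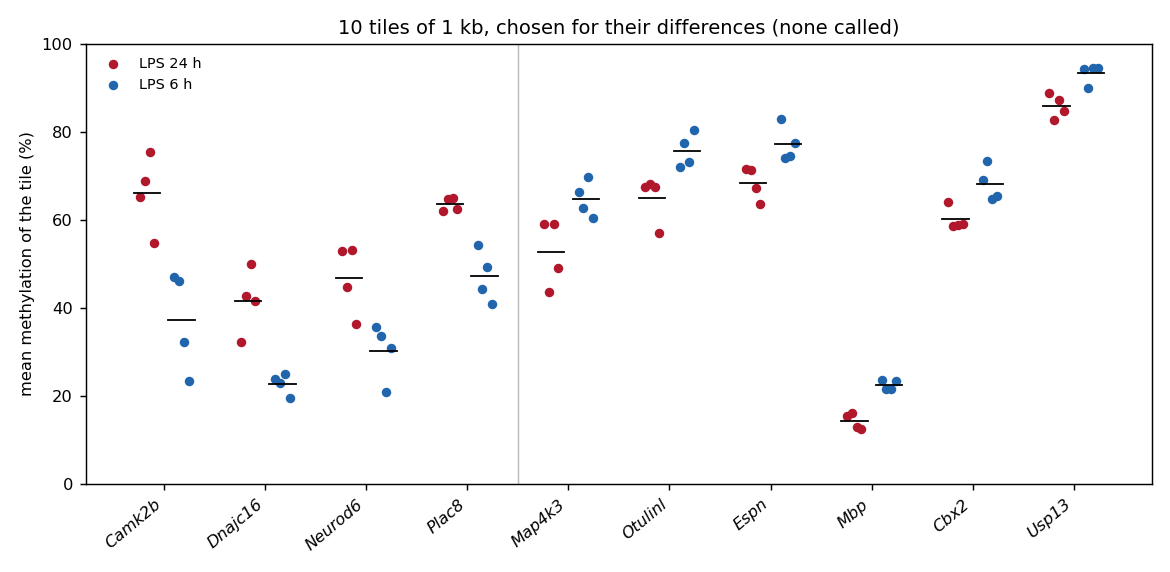
Mean methylation (%) of 10 tiles in each library, LPS 24 h in red to the left of LPS 6 h in blue, with black lines at group means. The groups do not overlap because tiles were chosen for that, and none passed the test. Camk2b shows the widest separation, at 66.1% and 37.2%.

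Genes of pathways and cell types were then described by 31 lists holding 767 genes, of which 478 could be tested. Over all genes tested the median difference was 0.534 points and 79.1% were above 0. In each of the 31 lists limma called 0 genes (0% of all genes tested), and each list's median was above 0, from 0.150 points for Toll-like receptor and NF-kB signalling to 2.81 points for imprinted genes. After centring each library, which takes 0.802 points from every gene, the median of all genes was -0.267 points and 9 lists stood above 0. Gene values below are means over a gene's cytosines, and no adjusted p was under 0.700.

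Of the genes that sense LPS, Toll-like receptor and NF-kB signalling had 19 of 27 members tested, with 12 above 0, against 79.1% of all genes. Nfkb1, the p50 subunit of NF-kB, stood at 10.1% ± 0.561 at LPS 24 h and 9.59% ± 0.406 at LPS 6 h. Ticam1, an adaptor of Toll-like receptors, averaged 12.0% ± 4.05 at LPS 24 h and 10.6% ± 2.17 at LPS 6 h. Among 23 tested cytokine, chemokine and receptor genes, 18 were above 0. The inflammatory cytokine Tnf stood at 65.7, 65.6, 64.7 and 52.1% at LPS 24 h, against 61.0, 61.1, 62.7 and 60.8% at LPS 6 h, and replicate 4 of LPS 24 h was lower than any other. The chemokines Ccl3 and Ccl4 overlap and share the same 5 cytosines, at 86.4% ± 3.11 at LPS 24 h and 83.7% ± 4.73 at LPS 6 h. Il1b and Tlr4 had no cytosine in the shared set.

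Of the inflammasome genes, 6 were tested. Nlrp3, its sensor, stood at 74.3, 73.8, 79.3 and 71.5% at LPS 24 h, against 75.4, 72.0, 76.0 and 69.5% at LPS 6 h. P2rx7, a channel opened by extracellular ATP, averaged 63.0% ± 2.19 at LPS 24 h and 61.3% ± 1.96 at LPS 6 h. Among 14 interferon response genes, Oas2, a sensor of double-stranded RNA, averaged 63.6% ± 4.43 at LPS 24 h and 59.1% ± 3.34 at LPS 6 h. The exonuclease gene Isg20 averaged 51.0% ± 2.87 at LPS 24 h and 53.7% ± 1.79 at LPS 6 h. The groups overlapped in both.

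Lcn2, an acute phase protein made in inflamed brain, had the lowest difference of the listed genes. It stood at 81.4, 77.2, 83.3 and 80.3% at LPS 24 h, against 83.4, 83.6, 84.7 and 87.8% at LPS 6 h, and the highest library of LPS 24 h lay next to the lowest of LPS 6 h. The difference was -4.33 points (95% interval -7.96 to -0.701, limma adjusted p = 0.700). Saline libraries stood at 81.0, 85.0 and 86.2%, across both groups. Ptges, a synthase of prostaglandin E2, averaged 27.7% ± 2.27 at LPS 24 h and 25.4% ± 2.16 at LPS 6 h.

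Markers of glia are genes used by 1 class of glial cell. Among 10 tested astrocyte markers, all 10 were above 0, against 79.1% of all genes, with a median of 1.06 points. After centring 6 were above 0, against 37.8% of all genes, with a median of 0.257 points. Gfap, the astrocyte intermediate filament, stood at 34.0, 37.7, 35.2 and 40.6% at LPS 24 h, against 33.8, 35.4, 32.2 and 31.7% at LPS 6 h, and the groups overlapped. Aqp4, the astrocyte water channel, averaged 25.6% ± 5.51 at LPS 24 h and 20.6% ± 1.82 at LPS 6 h. Of 15 microglia and macrophage markers, 11 were above 0, with a median of 0.994 points, and after centring 9 were, with a median of 0.192 points. Cx3cr1, the fractalkine receptor of microglia, averaged 94.1% ± 1.20 at LPS 24 h and 95.1% ± 0.430 at LPS 6 h. Mobp, a myelin protein gene among 12 oligodendrocyte markers, averaged 84.9% ± 2.53 at LPS 24 h and 81.3% ± 2.73 at LPS 6 h.

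Markers of vessels, choroid plexus and blood cells were described for the other cells a dissected hippocampus can hold. Of 15 tested endothelial and pericyte markers 13 were above 0 (median 0.795 points), of 10 choroid plexus and ependyma markers 9 (0.650), of 14 neutrophil and monocyte markers 11 (0.837) and of 20 lymphocyte markers 14 (0.905). Over all genes 79.1% were above 0. After centring 7, 4, 7 and 11 of these markers stood above 0, against 37.8% of all genes. Vtn, a matrix protein gene used as a pericyte marker, stood at 62.3, 59.3, 48.9 and 43.1% at LPS 24 h, against 43.4, 46.9, 44.4 and 27.8% at LPS 6 h, over 3 cytosines. Kcnj13, a potassium channel of choroid plexus, also with 3 cytosines, stood at 44.2, 39.6, 26.5 and 23.7% at LPS 24 h, against 16.7, 18.1, 19.3 and 37.6% at LPS 6 h. The groups overlapped at both. Elane, the elastase of neutrophils, stood at 91.3, 86.9, 95.5 and 94.0% at LPS 24 h, against 84.4, 84.1, 86.7 and 88.0% at LPS 6 h (difference 6.14 points, 95% interval 1.71 to 10.6), and 1 library of LPS 24 h lay among those of LPS 6 h. The part of these cells in any difference was not tested.

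Markers of excitatory neurons had 9 of 10 tested genes above 0, and those of inhibitory neurons 10 of 12, against 79.1% of all genes. After centring 4 and 3 were above 0, against 37.8% of all genes. Neurod6 as a whole stood at 16.6, 15.01, 17.96 and 11.3% at LPS 24 h, against 11.8, 12.8, 7.94 and 10.3% at LPS 6 h. Vip, the peptide of a class of interneurons, stood at 58.3, 50.9, 59.7 and 55.6% at LPS 24 h, against 49.0, 50.2, 50.6 and 45.2% at LPS 6 h, with a difference of 7.34 points (adjusted p = 0.700). Gria1, an AMPA receptor subunit, averaged 41.2% ± 1.36 at LPS 24 h and 37.7% ± 2.16 at LPS 6 h. Of 32 glutamate and GABA receptor genes 27 were above 0, and of 31 synaptic scaffold and vesicle genes 29 were. After centring these counts fell to 6 and 12. Chrna6, a nicotinic acetylcholine receptor subunit, stood at 38.9, 41.1, 37.7 and 35.4% at LPS 24 h, against 31.8, 28.3, 29.5 and 36.3% at LPS 6 h. Ache, the target of DFP, stood at 2.36% ± 0.399 at LPS 24 h and 2.50% ± 0.631 at LPS 6 h, below the 5% limit of the test.

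Many genes of the stress axis lay below the 5% limit of the test: 11 of 20 measured glucocorticoid receptor and response genes and 9 of 16 of the HPA axis. Nr3c1, the glucocorticoid receptor, stood at 1.16% ± 0.277 at LPS 24 h and 1.25% ± 0.155 at LPS 6 h over 120 cytosines, and Fkbp5 at 0.568% ± 0.101 at LPS 24 h and 0.510% ± 0.104 at LPS 6 h over 108. Nr3c2, the mineralocorticoid receptor, stood at 8.04% ± 0.499 at LPS 24 h and 7.61% ± 0.302 at LPS 6 h. Crhr1 averaged 15.6% ± 0.430 at LPS 24 h and 14.8% ± 0.384 at LPS 6 h (adjusted p = 0.713). Per1 and Arntl, genes of the circadian clock, differed by 0.251 and 0.506 points. Bdnf, a neurotrophin, stood at 1.93% ± 0.322 at LPS 24 h and 1.88% ± 0.275 at LPS 6 h, below the limit as well.

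Neuronal genes listed by name are given next, of which Zbtb20 was also taken for a large absolute difference within its list. Ntrk2, the receptor of Bdnf, averaged 35.8% ± 1.34 at LPS 24 h and 34.7% ± 1.68 at LPS 6 h. Prox1, a transcription factor of dentate granule cells, averaged 13.1% ± 1.01 at LPS 24 h and 12.4% ± 1.08 at LPS 6 h. Camk2a, the alpha subunit of CaMKII, differed by 0.0152 points (95% interval -3.01 to 3.04). Zbtb20, a transcription factor of hippocampal pyramidal cells, averaged 30.7% ± 0.434 at LPS 24 h and 29.5% ± 0.517 at LPS 6 h, a difference of 1.17 points (95% interval 0.0693 to 2.27, adjusted p = 0.713). Of 20 tested cholinergic genes 18 were above 0, of 33 potassium channel genes 29, of 23 calcium channel genes 22 and of 12 clock genes 11, against 79.1% of all genes. After centring 8, 11, 13 and 1 were above 0, against 37.8% of all genes. Of 64 HOX and other homeobox genes, 49 lay below 5%.

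Genes of the methylation machinery showed small differences. Dnmt3a stood at 12.3, 11.01, 11.7 and 11.4% at LPS 24 h, against 11.4, 10.99, 10.7 and 9.76% at LPS 6 h. Dnmt1 averaged 44.3% ± 0.557 at LPS 24 h and 43.9% ± 0.969 at LPS 6 h, and Tet2 averaged 19.9% ± 1.06 at LPS 24 h and 19.03% ± 1.05 at LPS 6 h. Of the 15 machinery genes tested, 11 were above 0, against 79.1% of all genes, with a median of 0.343 points.

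**Figure D4:**
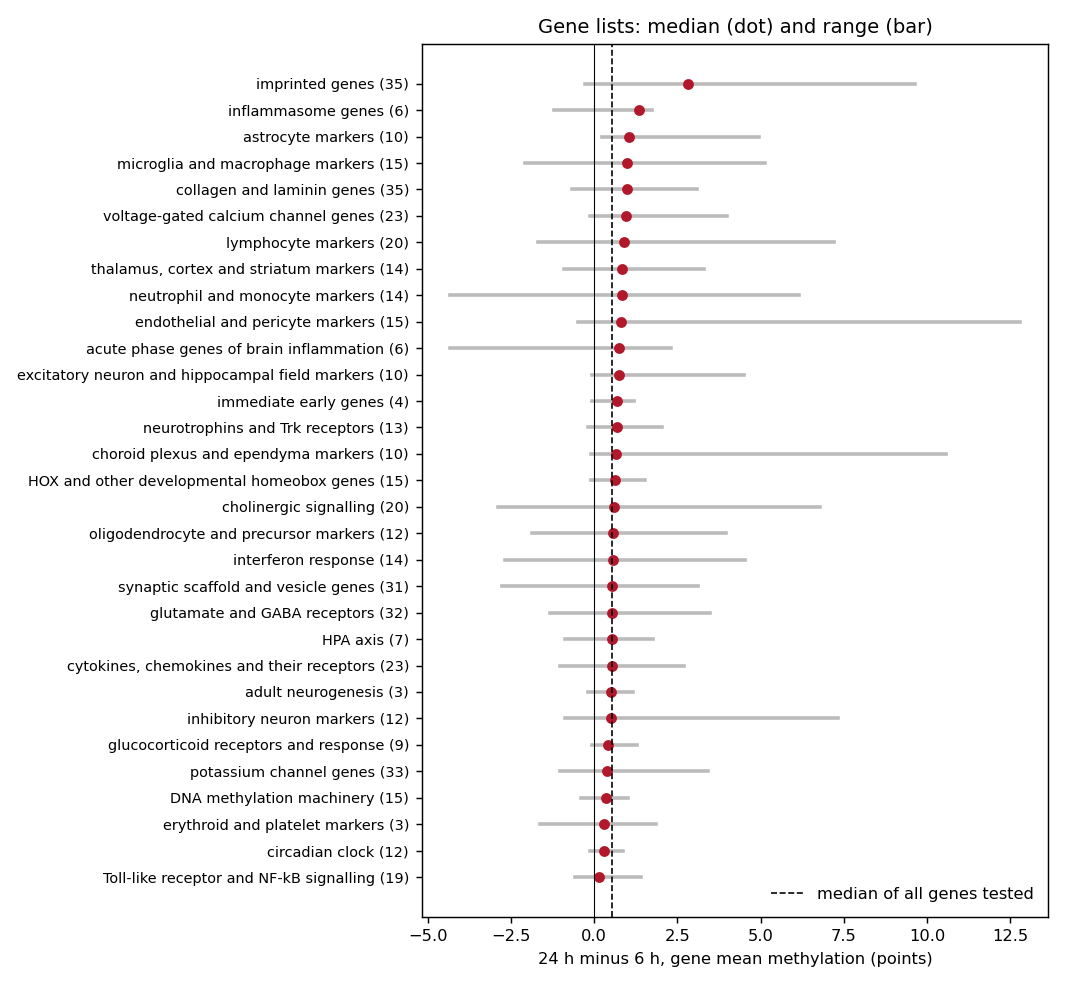
Median (red dot) and range (grey bar) of the LPS 24 h minus LPS 6 h difference of gene means, in points, for the tested genes of 31 lists, with the number tested in brackets. The dashed line marks the median of all genes, 0.534 points. Medians lie between 0.150 and 2.81 points.

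Imprinted genes had the highest list median. Of 35 tested, 34 were above 0, against 79.1% of all genes, with a median of 2.81 points. After centring 28 stayed above 0, against 37.8% of all genes. Intermediate levels are common among them. All tiles at 20 to 50% had a median difference of 2.61 points, though tiles and gene means are unlike measures. The part of the level in the median of this list was not tested. Windows of listed genes can overlap, as those of Peg3 and Usp29 do at their shared promoter. A shared cytosine counts for each gene, so the genes are not all separate measurements. Sgce, an imprinted sarcoglycan, stood at 35.4, 35.03, 26.1 and 25.8% at LPS 24 h, against 27.8, 25.4, 19.1 and 11.4% at LPS 6 h. Saline libraries stood at 42.0, 26.8 and 38.2% and those at LPS 12 h at 41.1, 13.7 and 42.8%. The LPS 24 h and LPS 6 h libraries overlapped.

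In the promoters of imprinted genes, 26 were measured and 13 had a mean of 5 to 95%. Of these, 12 were above 0, against 69.5% of all tested promoters. After centring 10 were above 0, against 42.1% of all tested promoters. Their median as measured was 2.75 points, against 0.862 points over all tested promoters. Peg3 and Usp29 share a promoter and so the same 8 cytosines, which were counted for each gene, and the median is their value. At Peg3 and Usp29, Plagl1, Nap1l5 and Mcts2, among others, replicate 4 was the lowest library of both groups. It stood at 39.0, 35.1, 29.1 and 24.4% at LPS 24 h, against 25.9, 27.5, 18.4 and 17.7% at LPS 6 h. At Mkrn3, Nnat and Slc22a2 it was not the lowest of LPS 6 h. Peg3, Usp29, Mkrn3, Gnas and Slc22a2 changed sign under at least 1 alternative. The part of replicate 4 in the direction was not tested. Zrsr1, whose sequence stands above, had 60.4, 54.9, 40.3 and 38.9% at LPS 24 h, against 39.7, 34.6, 37.2 and 24.3% at LPS 6 h, over 28 cytosines. The groups overlapped, and the difference of 14.7 points had an adjusted p of 0.777. At LPS 12 h the libraries stood at 64.7, 33.6 and 65.0%, and in saline at 49.9, 41.2 and 45.9%. Nnat stood at 35.4% ± 7.14 at LPS 24 h and 25.7% ± 6.71 at LPS 6 h, and Mest at 53.0% ± 4.93 at LPS 24 h and 50.6% ± 2.47 at LPS 6 h. Mkrn3 was the exception to the direction, at 18.8% ± 3.26 at LPS 24 h and 19.4% ± 2.95 at LPS 6 h.

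**Figure D5:**
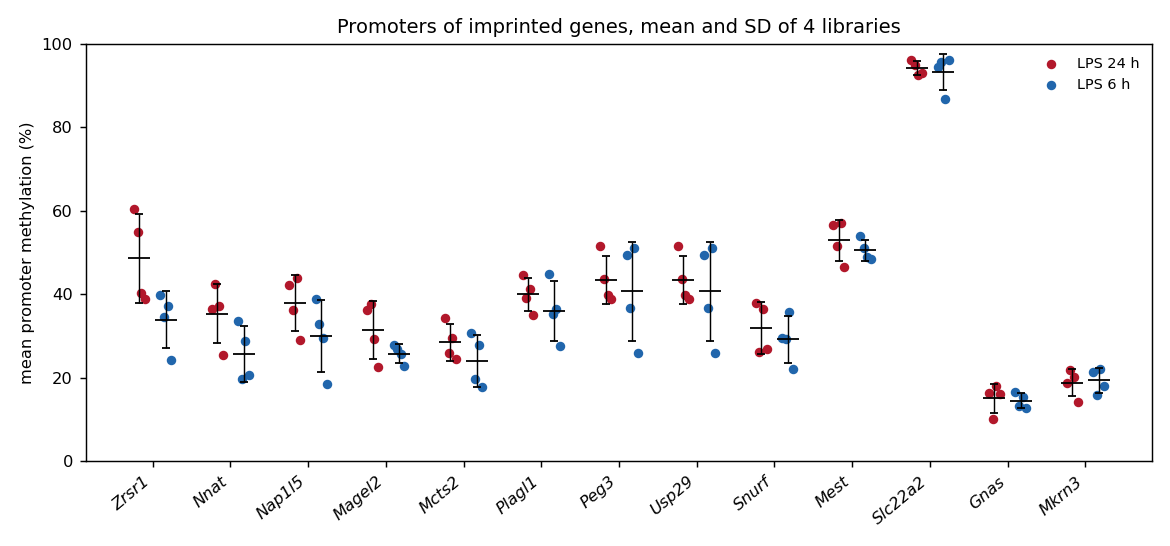
Methylation (%) of the 13 tested promoters of imprinted genes in each library, LPS 24 h in red to the left of LPS 6 h in blue, with the mean and SD of 4 libraries. Peg3 and Usp29 share the same cytosines. The groups overlap at each promoter, and Zrsr1 shows the widest difference, at 48.6% and 34.0%.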

How the data were processed

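The authors deposited percent methylation (0 to 100) of single cytosines, in 1 table for each tissue and time, with the LPS libraries and saline libraries side by side. The tools named are methylKit, Bismark, Bowtie2, Trim Galore, FastQC and SAMtools, with GRCm38/mm10 as the build, per the submitters' processing notes. Tool versions, settings and coverage limits (as for any normalisation) were not given in the sources used here. Read counts are not in the tables, so depth is unknown and no other minimum coverage could be tried. All 3371739 saline values of shared cytosines were identical in the tables of LPS 24 h and LPS 6 h, so libraries were compared across the tables. Of whole blood, only the saline libraries were used, for the tissue check, and its LPS libraries were left unused.

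Percent values were averaged over 1 kb tiles, genes and promoters with at least 3 cytosines, and those with a mean of 5 to 95% over the libraries tested were compared with limma 3.58.1 under R 4.3.3 (linear fits moderated by eBayes with a trend, two-sided p, adjusted by Benjamini-Hochberg over all features of a kind). Promoter starts are the RefSeq starts of GRCm38.p6, and all 5469 measured cytosines inside the promoter records of listed genes lay on a CG. Library means were compared by an exact two-sided permutation test. Python 3.11.15, numpy 2.4.6, pandas 2.3.3, scipy 1.17.1, matplotlib 3.10.9 and arrow 21.0.0 were used.

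The rule for named tiles took called tiles only. As none was called, the same rule without that condition, 6 in each direction, was used after the data were seen. Some of the genes and tiles so taken are not reported here. Up to 2 genes a list with the largest absolute difference, and 24 genes listed by name, were taken for values, and the text prints part of them. The members and lists were chosen with earlier results of these data known. Replicate numbers are shared between the times, but nothing in the labels ties a number to a mouse or day. Alternatives were each replicate left out, a replicate block, centring, the logit scale, other tile sizes, minimum cytosines, differences and limits on the mean, and a joint fit. Array weights and leaving out replicate 4 of both groups were added after seeing the data.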

Additional observations from a re-analysis of the deposited data

Results flagged for a closer look

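In 196 groups of 4 libraries, 12 had a library set apart from the other 3 by a gap beyond Dixon's 95% critical value, and chance alone gives about 1 such group in 20. No explanation was tested. At LPS 24 h, replicate 4 was low at the Otulinl tile (56.9%, others 67.4 to 68.2%) and in Tnf (52.1%, others 64.7 to 65.7%). Replicate 1 of LPS 24 h was high at the Cbx2 tile (64.2%, others 58.7 to 59.2%), in Ikbkb (76.0%, others 73.0 to 73.4%) and in Gabrd (74.7%, others 68.1 to 68.4%).

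At LPS 6 h, replicate 4 was low in Tet2 (17.5%, others 19.4 to 19.7%), P2rx7 (58.4%, others 62.1 to 62.4%) and Adarb2 (64.6%, others 68.4 to 68.8%). It was high in Nr3c2 (8.07%, others 7.439 to 7.502%) and Kcnj13 (37.6%, others 16.7 to 19.3%). Replicate 2 of LPS 6 h was low at the Usp13 tile (90.0%, others 94.3 to 94.6%) and high in Rarres2 (35.2%, others 27.7 to 28.5%).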

How the results depend on the processing

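Of 147 counts of called features, 146 were 0. The exception was 2 cytosines higher at LPS 24 h when the limit on the mean was dropped, at chromosome 13, 64427603 (- strand, outside protein-coding genes; 94.4% at LPS 24 h and 81.1% at LPS 6 h) and in Itsn1 at chromosome 16, 91839738 (+ strand; 58.4% at LPS 24 h and 37.4% at LPS 6 h). Both lie within 5 to 95%. Their limma adjusted p was 0.0271 and 0.0322 without the limit and 0.930 for both with it, and the cause was not tested. The difference of 0.627 points in the library mean was -0.0102 with the median over cytosines (exact permutation p = 1), the opposite sign. Those medians ran from 0 to 1.61% in each group, at the floor, and the cause of the change in sign was not tested. The difference of means was 0.621 over cytosines listed at all times and 0.942 as a mean over tiles. Leaving out one library at a time gave 0.405 to 0.936 points, with exact p from 0.0571 to 0.286, and 0 called tiles, genes and promoters throughout. Of the named values, 8 moved by more than 1 SD under an alternative, and the lowest limma adjusted p of any named tile, gene or promoter was 0.214. Under at least 1 alternative, 0 tiles, 17 genes and 5 promoters changed sign. The tiles were chosen for groups that do not overlap, so leaving out libraries could not change their sign. The 0 for tiles was thus partly fixed by that choice. Under a replicate block limma called 0 tiles, 0 genes and 0 promoters. Same-numbered libraries deviated together by r = 0.062, -0.0200, 0.0548 and 0.143 over tiles, and 3 of 4 libraries over tiles and 1 of 4 over genes correlated best with their own number, so whether the numbers pair the libraries is unknown. Without replicate 4 of both groups, and with array weights, 0 were called too.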
